A study of Rattus norvegicus with 6 samples.

Results

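The genes described are 10 genes of the endoplasmic reticulum (ER) folding machinery, Hspa5, Hsp90b1, Pdia4, Pdia6, Dnajb9, Dnajc3, Sdf2l1, Herpud1, Calr and Xbp1, measured in rat renal cortex. They were taken from a list of names that was chosen with earlier results of these data known. The genes were found on the array by matching each probe's accession to a gene symbol. All 10 were found, with 15 probes in all, among 31179 genes tested. The samples came from 6 male Sprague-Dawley rats, bought at 5 weeks of age and kept on a basal diet. A vehicle group of 3 rats was given corn oil for 4 weeks, and a treated group of 3 rats was given benzyl acetate, a fragrance and flavour ester, at 1000 mg/kg/day over the same 4 weeks. Cy3-labelled RNA from each rat was hybridised to 1 single-colour Agilent array. The comparison asks which transcripts of the cortex differ between treated and vehicle rats. Values are the log2 of a probe's background-subtracted signal relative to the 75th percentile of its array, and differences are benzyl acetate minus vehicle with a 95% interval.

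Proteins destined for secretion, for membranes or for lysosomes fold in the ER lumen with the help of chaperones and of enzymes that form disulfide bonds. When unfolded proteins build up, the sensors IRE1, PERK and ATF6 start the unfolded protein response (UPR), and the transcription factors XBP1 and ATF6 raise the transcription of chaperone genes through short promoter elements. In the renal cortex the proximal tubule makes large amounts of membrane transporters and endocytic receptors, which fold in the ER. Which cells gave the signal of the 10 genes was not measured. The markers of the labelled tissue were present: all 10 proximal tubule markers were well above background on all 6 arrays, with a summed linear signal, relative to the 75th percentile, of 2634 to 2718 in vehicle and 2662 to 2929 in treated rats.

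The promoter element that ties many of these genes together, the ER stress response element (ERSE), is a CCAAT box, then 9 bases of any kind (N), then CCACG. It was searched on both strands in the 250 bases before each gene's start, from RefSeq on the GRCr8 build. Of the 10 genes, 9 had a promoter in that table. The element was present in 5 of the 9 (Hspa5, Hsp90b1, Dnajc3, Calr and Xbp1), against 0.0657% of all 33469 promoters, a count of 22 that includes these 5. Outside the 10 genes it was in 2 of 14 other ER chaperones (Canx and Creld2). It was also in 1 of 21 other ER oxidoreductases and isomerases (Ero1b) and 1 of 19 ER-associated degradation genes (Derl3). In the other pathway lists described below it was in none. The element was searched because it is known from such genes, so these counts are a description and not a test. A shorter form, ERSE-II, is ATTGG, then 1 base of any kind, then CCACG, and was present in Herpud1 and in 0.0418% of all promoters. Among the 14 other ER chaperones it was in 1, Hyou1. The UPR element was searched only as TGACGTGG, which was in none of the 9 windows and in 0.52% of all promoters. The Hspa5 window holds TGACGTGA, which differs in the last base and was not counted. The CCAAT box, whose letters lie within the ERSE and in reverse complement make up the start of ERSE-II, was in all 9 and in 34% of all promoters. A match describes these letters only, and binding was not measured. The 4 promoters below are shown because they carry the single, paired and short forms of the element; capitals mark the ERSE or ERSE-II, and each runs 5′ to 3′ on the gene's strand.
Hspa5 (chr3:38452766-38453015, plus strand): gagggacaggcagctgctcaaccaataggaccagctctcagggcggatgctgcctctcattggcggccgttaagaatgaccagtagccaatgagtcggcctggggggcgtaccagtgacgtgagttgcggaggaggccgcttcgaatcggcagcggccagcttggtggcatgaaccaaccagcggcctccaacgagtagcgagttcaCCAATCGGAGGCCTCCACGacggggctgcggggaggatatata
Hsp90b1 (chr7:23012294-23012543, minus strand): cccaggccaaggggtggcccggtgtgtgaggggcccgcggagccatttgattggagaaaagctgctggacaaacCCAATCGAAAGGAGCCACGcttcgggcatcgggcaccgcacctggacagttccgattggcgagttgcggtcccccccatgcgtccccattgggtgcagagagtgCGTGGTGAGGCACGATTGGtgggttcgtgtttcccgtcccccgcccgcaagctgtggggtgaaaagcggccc
Xbp1 (chr14:84604373-84604622, plus strand): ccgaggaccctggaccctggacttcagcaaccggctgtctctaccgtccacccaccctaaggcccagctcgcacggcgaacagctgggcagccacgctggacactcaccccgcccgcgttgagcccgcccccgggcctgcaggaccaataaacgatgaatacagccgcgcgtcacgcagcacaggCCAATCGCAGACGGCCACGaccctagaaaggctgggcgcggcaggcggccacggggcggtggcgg
Herpud1 (chr19:10614708-10614957, minus strand): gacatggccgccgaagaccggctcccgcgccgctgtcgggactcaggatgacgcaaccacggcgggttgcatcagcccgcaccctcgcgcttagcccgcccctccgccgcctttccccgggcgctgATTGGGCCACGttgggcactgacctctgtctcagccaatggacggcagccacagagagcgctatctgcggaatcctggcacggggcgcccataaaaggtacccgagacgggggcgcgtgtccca
In Hspa5 the element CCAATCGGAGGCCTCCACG lay 43 to 25 bases before the start. Hsp90b1 held a pair, 176 to 158 bases before the start on the gene's strand and 72 to 54 bases before it on the other strand. The Dnajc3 element read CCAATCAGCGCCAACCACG and lay 133 to 115 bases before the start. That of Calr lay on the other strand, 232 to 214 bases before the start, and read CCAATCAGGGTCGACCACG in the sense of the motif.

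None of the 10 genes passed the test. In limma, with Benjamini-Hochberg adjustment over all 31179 genes and a threshold of 0.05, 0 of the 10 were called and their adjusted p-values ran from 0.744 (Hspa5) to 0.997 (Pdia4). The background was the same: 0% of all genes were called lower and 0% higher, and the lowest adjusted p of any gene was 0.271. At an unadjusted p under 0.05 limma counted 0 of the 10 genes, against 2.92% of all genes on the lower side and 3.82% on the higher side. Differences of 9 of the 10 genes were below 0 and that of Hsp90b1 was above it, while 46% of all genes had a difference below 0. The median difference of the 10 was -0.083, against 0.012 over all genes. Among the 12276 tested genes with a symbol, as the 10 have, 6090 were below 0 and the median was 0.0014. Because the 10 genes were chosen with earlier results of these data known, their shared direction is a description and not a test. The intervals were wide beside these differences, and that of every one of the 10 genes included 0. The typical interval of the 10 reached 0.25 to either side, and 9 of the 10 intervals lay within a 1.5-fold difference in either direction. In size, the differences of Hspa5, Pdia6, Dnajb9, Dnajc3 and Sdf2l1 were larger than the SD within either group. Those of the other genes were smaller than the SD within either group. Nothing in the labels says that the animals were dosed or processed in pairs, and 3 arrays against 3 cannot give an exact two-sided permutation p below 0.1. In whole tissue, fewer cells of a type and less RNA per cell cannot be told apart.

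**Figure D1:**
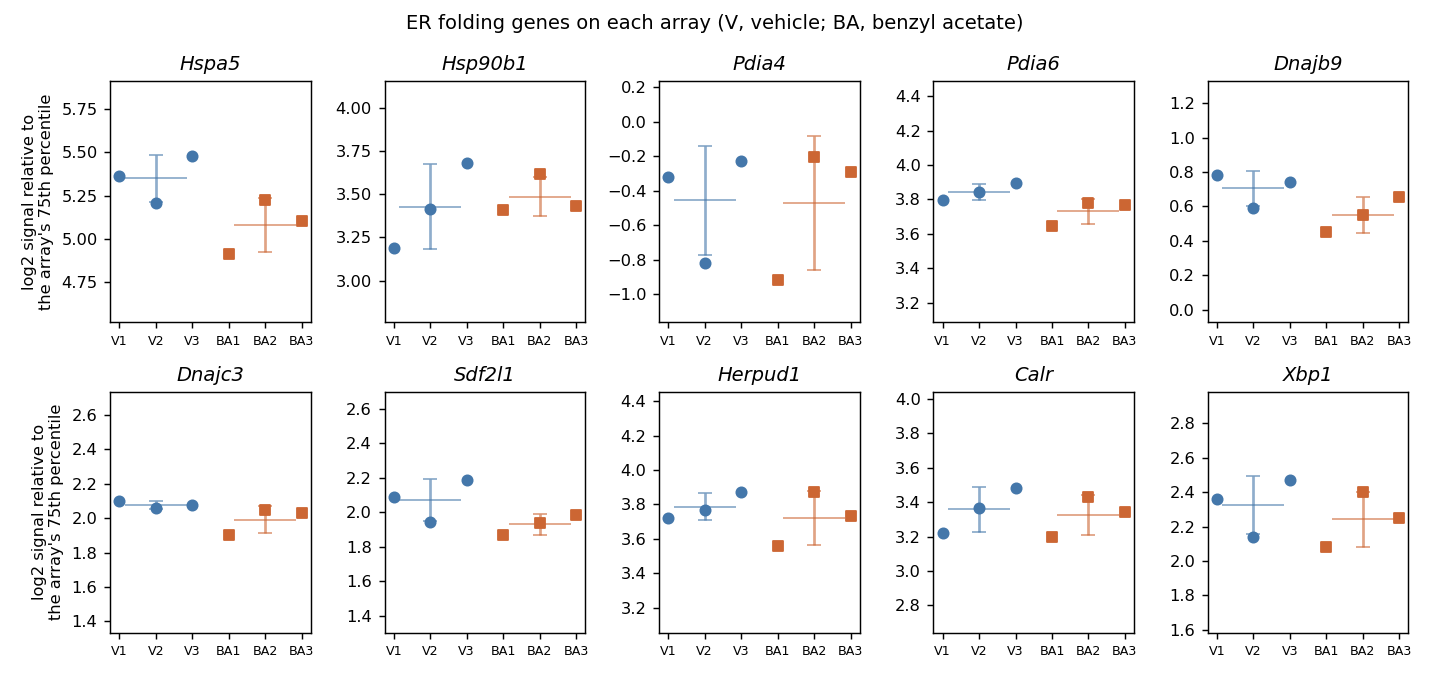
Each panel shows 1 gene, with the gene's scaled log2 signal (array 75th percentile at 0) on the vertical axis and the 6 arrays along the horizontal axis (V1 to V3 vehicle, circles; BA1 to BA3 benzyl acetate, squares); lines and bars are the group mean and SD (n = 3), and every panel spans the same height. The treated arrays lie wholly below the vehicle arrays in Pdia6 and Dnajc3, and the groups overlap in the other 8 genes.

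Hspa5 encodes BiP, the HSP70 chaperone of the ER lumen, which binds unfolded chains and holds the stress sensors inactive. Its log2 signal was 5.36, 5.21 and 5.48 in vehicle replicates 1, 2 and 3, and 4.91, 5.22 and 5.10 in benzyl acetate replicates 1, 2 and 3. The groups overlapped by a narrow margin, since vehicle replicate 2 stood just below benzyl acetate replicate 2. The difference of -0.27 (-0.55 to 0.01) was the largest in size among the 10 and corresponds to a signal 17.0% lower, with limma's adjusted p at 0.744. Leaving out each array in turn gave differences of -0.34 to -0.19, all below 0.

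Hsp90b1 encodes GRP94, the HSP90 chaperone of the ER lumen. The probe used for the gene gave 3.19, 3.42 and 3.68 in vehicle and 3.41, 3.62 and 3.44 in treated rats, with a difference of 0.06 (-0.29 to 0.40). Its vehicle arrays spanned the whole range of the 6, so the treated values lay inside it. A second probe for the same transcript gave another picture, with 1.51, 1.45 and 1.58 in vehicle and 1.25, 1.33 and 1.38 in treated rats. Every treated value lay below every vehicle value there, at -0.19 (-0.37 to -0.02), with limma's adjusted p at 0.724 over all 42355 probes. Over the 6 arrays the 2 probes correlated at only r = 0.03, so the direction of Hsp90b1 depends on the probe.

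Calr encodes calreticulin, a calcium-binding lectin chaperone for glycoproteins. It stood at 3.22, 3.37 and 3.48 in vehicle and 3.20, 3.43 and 3.35 in treated rats, a difference of -0.03 (-0.28 to 0.21). The groups overlapped almost completely, and the difference was 0.029 above 0 without vehicle replicate 3 and also 0.029 above 0 without benzyl acetate replicate 1.

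The co-chaperones of BiP gave differences below 0. Dnajb9 encodes ERdj4, a J-domain protein that delivers clients to BiP. Its values were 0.78, 0.59 and 0.74 in vehicle and 0.45, 0.55 and 0.65 in treated rats, a difference of -0.15 (-0.37 to 0.07). A single treated array, replicate 3, reached above the lowest vehicle array. A second Dnajb9 probe gave -0.13 and followed the first over the 6 arrays at r = 0.97. Dnajc3 encodes P58IPK, a J-domain co-chaperone that also restrains PERK. It had 2.10, 2.06 and 2.07 in vehicle and 1.90, 2.04 and 2.03 in treated rats, so the groups did not overlap, but the difference was only -0.09 (-0.26 to 0.08). Sdf2l1 encodes a partner of ER J-domain proteins that keeps clients soluble. Its values were 2.09, 1.94 and 2.19 in vehicle and 1.87, 1.94 and 1.98 in treated rats, a difference of -0.14 (-0.35 to 0.07). Treated replicate 3 lay above the lowest vehicle array, and treated replicate 2 just below it. Its other probes gave -0.25 (-0.53 to 0.03) and -0.19 (-0.55 to 0.17); the first of these followed the probe used for the gene at r = 0.90, and the second only at r = 0.40.

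The disulfide isomerases differed from each other in spread. Pdia6 encodes P5, a protein disulfide isomerase that associates with BiP. It had 3.80, 3.84 and 3.89 in vehicle and 3.65, 3.78 and 3.77 in treated rats. No treated array reached the vehicle range, and the difference was -0.11 (-0.29 to 0.06), with limma's adjusted p at 0.807. Every treated array lay below every vehicle array in 2 of the 10 genes, Pdia6 and Dnajc3, and the reverse held in 0. Over all genes the shares were 5.31% and 7.51%, and among the 12276 genes with a symbol the counts were 731 and 724. A count of 2 among 10 genes rests on few genes, and the small sizes of both differences stand beside it. Pdia4 encodes ERp72, a disulfide isomerase of the same chaperone complex. It was the most variable of the 10, with -0.32, -0.82 and -0.23 in vehicle and -0.92, -0.20 and -0.29 in treated rats. Each group held 1 low array, vehicle replicate 2 and benzyl acetate replicate 1, and the difference was -0.01 (-0.61 to 0.59). This was the only interval of the 10 that reached beyond a 1.5-fold difference.

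Xbp1 and Herpud1 act on either side of the chaperones. Xbp1 encodes the transcription factor that IRE1 activates by splicing its mRNA; whether the probe separates the spliced form was not examined. It stood at 2.36, 2.14 and 2.47 in vehicle and 2.08, 2.40 and 2.25 in treated rats, a difference of -0.08 (-0.38 to 0.22). Herpud1 encodes a membrane protein of the complex that exports misfolded proteins for degradation. Its values were 3.72, 3.77 and 3.87 in vehicle and 3.56, 3.87 and 3.74 in treated rats, a difference of -0.07 (-0.31 to 0.18), and its second probe gave -0.04 and followed the first at r = 0.86. For both genes the groups overlapped, and benzyl acetate replicate 2 stood near the top of all 6 arrays.

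**Figure D2:**
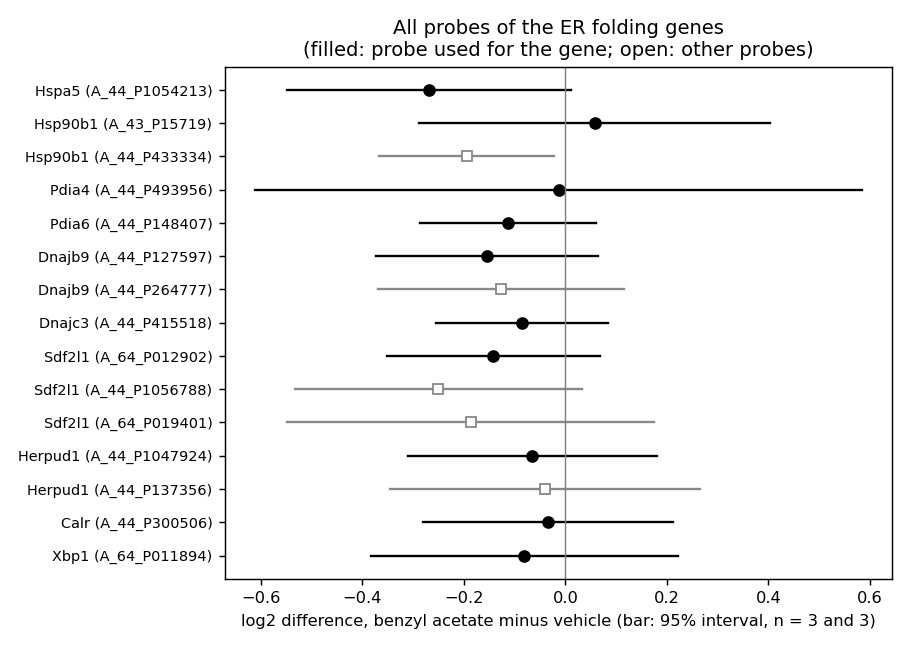
Points are the log2 differences, benzyl acetate minus vehicle, of all 15 probes of the 10 genes, with 95% intervals from limma (n = 3 and 3); filled circles are the probes used for the genes and open squares the others. Of the 15 points 14 lie below 0, and 1 interval, that of the second Hsp90b1 probe, does not include 0.

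Across probes the picture was the same. All 15 probes were well above background on all 6 arrays, and no spot of theirs was marked as an outlier. Differences of 14 of the 15 were below 0, with a median of -0.11, against 47% of all probes below 0 and a median of 0.009. Limma called 0 of the 15 after adjustment, where 0% of all probes were called, and 1 at an unadjusted p under 0.05, the second Hsp90b1 probe, against 3.01% of all probes on the lower side. Every treated array lay below every vehicle array for 3 of the 15 probes, against 5.57% of all probes, and the reverse held for none of the 15, against 7.14%. Probes of 1 gene share a transcript and are not replicates.

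The 10 genes varied together from animal to animal, over a wider span than the difference between the groups. Taken as deviations from each gene's own mean over the 6 arrays, the mean of the 10 was 0.03, -0.05 and 0.16 in vehicle replicates 1, 2 and 3 and -0.19, 0.06 and -0.003 in benzyl acetate replicates 1, 2 and 3. Benzyl acetate replicate 1 was thus low and vehicle replicate 3 high, while the other 4 arrays lay near the middle. The group means of this profile were 0.05 ± 0.109 (SD, n = 3) for vehicle and -0.05 ± 0.132 (SD, n = 3) for benzyl acetate, so the difference of -0.09 was smaller than the SD within either group.

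Benzyl acetate replicate 1 had the lowest value of all 6 arrays for 9 of the 10 genes, the exception being Hsp90b1, whose lowest array was vehicle replicate 1. Among 29798 genes detected on all 6 arrays, that array was the lowest for 12.9%. Vehicle replicate 3 was the highest for 7 of the 10 genes, against 14.8% of all genes. The other 3 had their highest value in vehicle replicate 1 (Dnajb9 and Dnajc3) or benzyl acetate replicate 2 (Pdia4). Counted over the 15 probes, benzyl acetate replicate 1 was the lowest for 12 and vehicle replicate 3 the highest for 10.

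**Figure D3:**
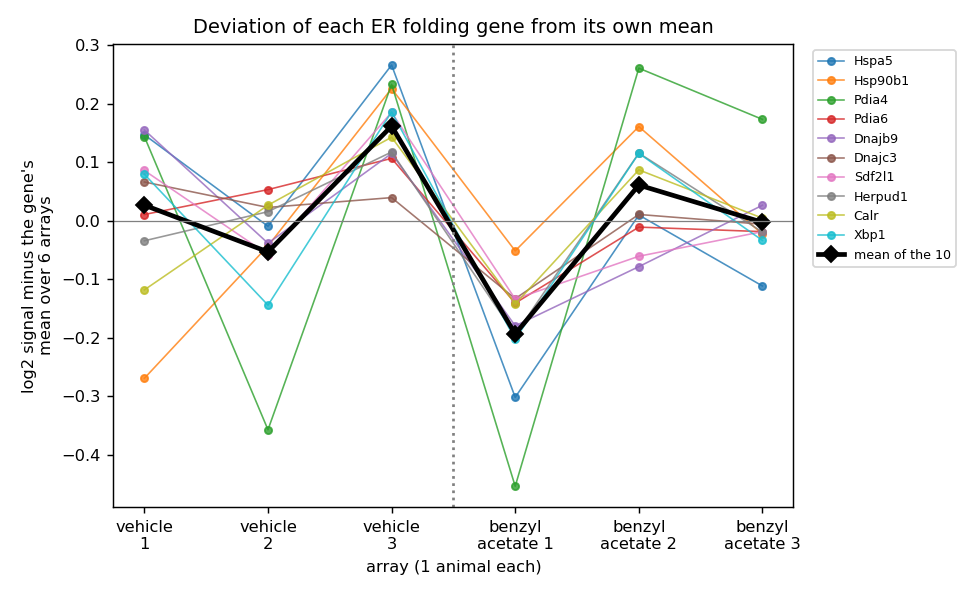
Each thin line is 1 of the 10 genes, plotted as its log2 signal minus its own mean over the 6 arrays (vertical axis) on each array (horizontal axis, 1 animal each); the thick black line is the mean of the 10. All 10 genes lie below 0 on benzyl acetate replicate 1 and above 0 on vehicle replicate 3.

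As a description over 6 arrays that share their scaling, the median Pearson r of the 45 gene pairs was 0.69, and 43 of the pairs were above 0. Over all pairs of genes detected on all 6 arrays the median was 0.01. With the group means removed, the median of the 45 pairs was 0.72, so the co-variation was also present within the groups. Xbp1 followed the mean of the other 9 genes most closely (r = 0.93), followed by Herpud1 (0.88) and Hspa5 (0.87). Hsp90b1 followed it least, at 0.37, and the lowest pair was Hsp90b1 with Dnajb9, at -0.17. Without benzyl acetate replicate 1 the median of the 45 pairs was 0.40, so a large part of it rested on that animal.

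The count of 9 genes below 0 rested on the same array. Without benzyl acetate replicate 1 the differences of 5 genes were below 0 and those of 5 were above it, and the median was -0.020. Hspa5 (-0.19), Sdf2l1 (-0.11), Dnajb9 (-0.10), Pdia6 (-0.072) and Dnajc3 (-0.040) stayed below 0, and Pdia4 stood at 0.21. Without vehicle replicate 3 the count was 7 of 10 with a median of -0.054, and leaving out any of the other 4 arrays gave 9 or 10 of 10.

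**Figure D4:**
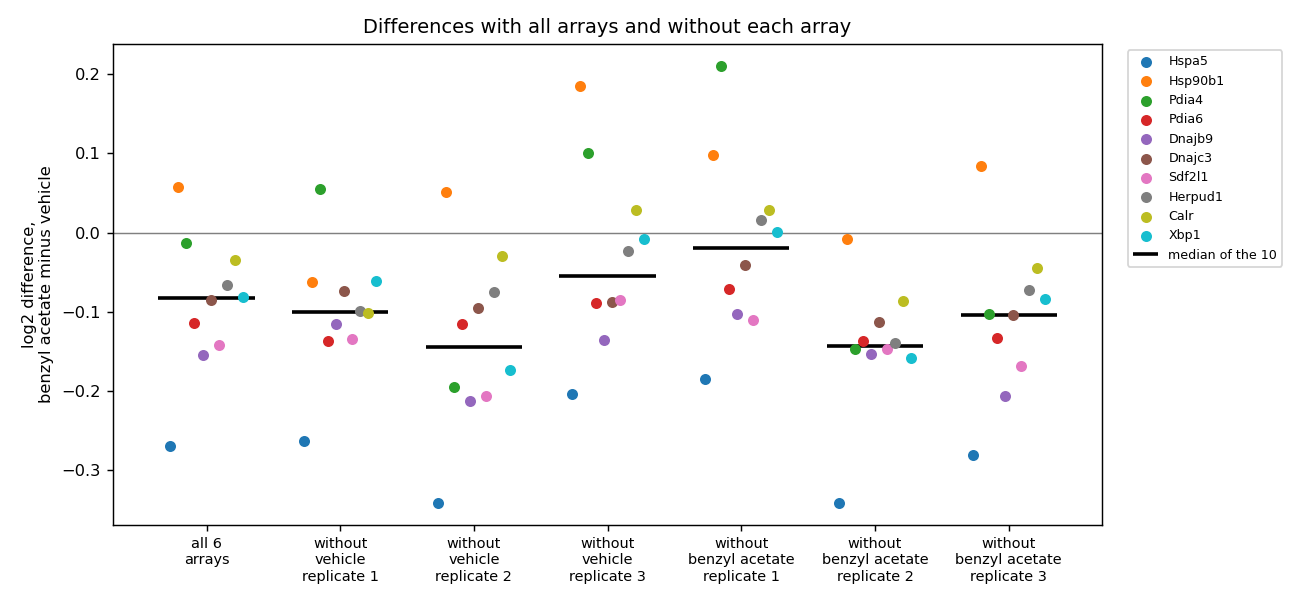
Points are the log2 differences, benzyl acetate minus vehicle, of the 10 genes with all 6 arrays and with each array left out in turn (horizontal axis), and the black lines are the medians. The median moves from -0.083 with all arrays to -0.020 without benzyl acetate replicate 1, where 5 points lie on each side of 0.

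Some measures of the arrays moved with this pattern. Benzyl acetate replicate 1 had the lowest share of probes well above background, 69.0%, and vehicle replicate 3 the highest, 72.0%. By group the shares did not overlap, at 70.5%, 71.0% and 72.0% in vehicle and 69.0%, 69.8% and 69.4% in treated rats. Unscaled 75th percentiles of the arrays did not overlap either, at 1003, 1049 and 1057 in vehicle and 988, 990 and 883 in treated rats. These measures cannot be told apart from treatment, and their part in the pattern was not tested. The Gapdh control probes at the 3' end were brighter than those at the 5' end by 2.37 log2 on benzyl acetate replicate 1 and 2.38 to 2.44 on 4 other arrays. The same gap stood apart, at 2.62, on benzyl acetate replicate 3; without that array 9 of the 10 genes had differences below 0 and the median was -0.10. Vehicle replicate 1 was on another slide than the other 5 arrays, and without it the count was also 9 and the median -0.10.

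Markers of other cell types were summed in the same way. The 8 T and NK cell markers had a summed linear signal of 2.44, 2.28 and 5.22 in vehicle replicates 1, 2 and 3 and 1.86 to 2.24 in treated rats. The groups did not overlap, by a narrow margin, and vehicle replicate 3 stood apart. Without Nkg7, a marker singled out after its values were seen, the sums overlapped. They then ran from 1.43 to 3.88 in vehicle and from 1.15 to 1.46 in treated rats. All 7 tested genes of this list had differences below 0, with a median of -0.69, and 0 were called; the part of such cells in the values of the folding genes was not tested. Plasma and B cells, which are rich in ER, gave 0.93 to 1.40 in vehicle and 1.01 to 1.25 in treated rats over the 6 of 9 markers with a matched probe, and Mzb1 was not well above background on any array. Both benzyl acetate replicate 1 and vehicle replicate 3 lay inside the range of the other arrays on this sum. The 5 collecting duct markers summed to 184 to 199 in vehicle and 133 to 172 in treated rats, without overlap, and 3 of the 5 had differences below 0. That gap rested on Slc26a4, an anion exchanger of intercalated cells, with log2 signals of 5.71, 5.60 and 5.30 in vehicle and 4.88, 4.56 and 4.27 in treated rats. Without Slc26a4, a marker singled out after its values were seen, the sums overlapped, at 143 to 146 in vehicle and 114 to 148 in treated rats; the part of such cells in the values of the folding genes was not tested. The sums over markers of the thick limb and distal tubule (265 to 446 and 325 to 345), glomerulus (28.4 to 34.9 and 30.0 to 38.3), macrophages (86.3 to 99.9 and 70.9 to 110.2), and of fibroblasts, fat and liver overlapped between vehicle and treated rats. The overlap of the first of these rested on Umod, without which the sums were 79.4 to 92.4 in vehicle and 71.0 to 75.2 in treated rats. That of the glomerulus rested on Podxl, without which they were 10.1 to 11.4 and 12.9 to 13.5. Umod and Podxl were also singled out after their values were seen. In limma no gene of any marker list was called.

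The rest of the secretory pathway was described from 7 lists. In limma none of their members passed over all genes, in either direction, and the lowest adjusted p was 0.675. Among 13 tested chaperones and co-chaperones of the ER lumen outside the 10 genes, 9 had differences below 0 and the median was -0.040; without vehicle replicate 2 only 6 were below 0 and the median was 0.012. Lrpap1, the chaperone of megalin and related receptors, stood at -0.16 (-0.34 to 0.03), with every treated array below every vehicle array. Serpinh1, the collagen chaperone HSP47, gave -0.19 (-0.44 to 0.06) and Sil1, an exchange factor of BiP, -0.11 (-0.37 to 0.14). Benzyl acetate replicate 1 was the lowest array for 3 of these 13 genes, against 9 of the 10 folding genes.

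The other disulfide isomerases, oxidases and prolyl isomerases had a median of -0.032 over 23 genes, 15 of them below 0. P4hb, protein disulfide isomerase itself, had values of 4.82, 4.75 and 4.68 in vehicle and 4.67, 4.63 and 4.55 in treated rats. Those groups did not overlap, and the difference was -0.14 (-0.31 to 0.04). Tmx2, a membrane thioredoxin-like protein, gave -0.20 (-0.38 to -0.02), Fkbp2, a prolyl isomerase, 0.03 (-0.16 to 0.22), and Ero1b, an oxidase that recharges the isomerases, 0.36 (0.01 to 0.71).

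The UPR sensors and factors were centred on 0, with a median of -0.003 over 16 genes, 8 below 0 and 8 above. Atf4, the transcription factor translated when PERK is active, had 4.52, 4.54 and 4.42 in vehicle and 4.31, 4.34 and 4.32 in treated rats. Every treated value was below every vehicle value, at -0.17 (-0.33 to -0.01), with limma's adjusted p at 0.726. Bloc1s1, whose mRNA is a known substrate of IRE1, stood at -0.01 (-0.17 to 0.15), and Mbtps2, a protease that cleaves ATF6, at -0.17 (-0.44 to 0.10). Of this list, benzyl acetate replicate 1 was the lowest array for 4 of 16 genes.

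ER-associated degradation genes had a median of -0.040 over 20 genes, 15 of them below 0. The probe of lowest signal for each gene gave a median of 0.0027 with 10 below 0, the mean of a gene's probes -0.0077 with 12 below 0, and leaving out vehicle replicate 2 gave -0.066 with 17 below 0. The genes of lowest p went in opposite directions: Ube2j1, a ubiquitin-conjugating enzyme of the ER membrane, stood at -0.19 (-0.35 to -0.03), and Edem2, which starts mannose trimming of misfolded glycoproteins, at 0.20 (0.04 to 0.36). Rnf5 (-0.04), a ubiquitin ligase, and Ubxn4 (-0.05), a membrane adaptor of the extraction complex, were close to 0. Translocation and N-glycosylation genes had the largest share below 0 among the 7 lists, 22 of 26, with a median of -0.051. Sec61g, a subunit of the translocation channel, gave -0.13 (-0.29 to 0.03). The oligosaccharyltransferase subunits Rpn1 and Rpn2 stood at -0.05 (-0.24 to 0.13) and 0.23 (0.07 to 0.39).

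Genes of ER-Golgi transport had a median of -0.031 over 18 genes, 11 below 0. Tmed2, a cargo receptor, stood at -0.11 (-0.25 to 0.04), the coat subunit Sec13 at -0.18 (-0.36 to -0.0036), the lectin Lman2 at 0.03 (-0.14 to 0.20) and Kdelr3, a receptor that returns ER proteins, at -0.38 (-0.90 to 0.15). Chaperones of the cytosol and mitochondria, taken for comparison, had a median of 0.019 over 15 genes, 6 of them below 0, which was -0.00055 with quantile normalization and -0.010 with median scaling. Hspa8, the constitutive cytosolic HSP70, had 8.07, 7.89 and 8.07 in vehicle and 7.63, 7.79 and 7.81 in treated rats. Its groups did not overlap, at -0.27 (-0.48 to -0.05) with limma's adjusted p at 0.700. Bag3, an HSP70 exchange factor, stood at 0.25 (0.0027 to 0.49) and the mitochondrial Hspe1 at 0.02 (-0.20 to 0.23). Across the lists, benzyl acetate replicate 1 was the lowest array for 4 of 23 oxidoreductases and isomerases, 5 of 20 degradation genes, 4 of 26 translocation and glycosylation genes, 6 of 18 transport genes and 5 of 15 cytosolic and mitochondrial chaperones. On that array 13 of these 15 chaperones and 21 of the 26 translocation genes lay below their own mean. The count was 8 of the 16 sensors and factors, and 14420 of 29798 genes. Vehicle replicate 3 was the highest array for 6 of the 15 chaperones, against 14.8% of all genes.

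**Figure D5:**
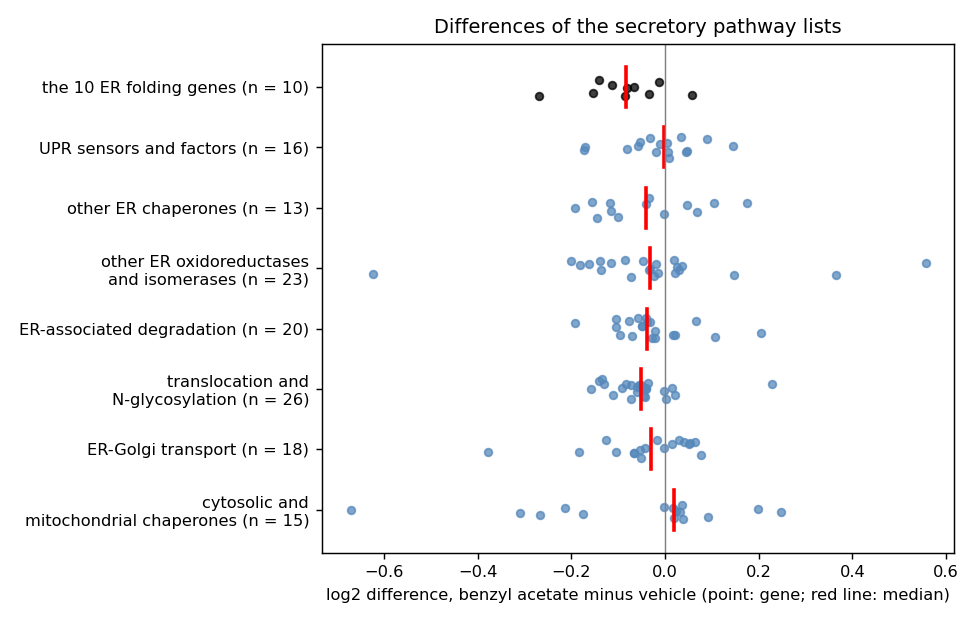
Points are the log2 differences, benzyl acetate minus vehicle, of the tested genes of each list, and red lines are the medians. The medians run from -0.083 for the 10 folding genes to 0.019 for the chaperones of cytosol and mitochondria (-0.010 with median scaling), and every list holds genes on both sides of 0.

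The genes whose pattern over the 6 arrays was most like the mean of the 10 were sought among 5275 others with a symbol, detection on all arrays and a spread at or above the median. The 8 closest, by Pearson r over 6 arrays, were Slc12a8 (0.96), Cdhr1 (0.96), Cdx2 (0.95), Nrn1l (0.94), Slc6a4 (0.94), Hsph1 (0.93), Nkx2-1 (0.92) and Rxfp2 (0.92). With the group means removed they kept r values of 0.92 to 0.97. Of the 8 only Hsph1, a cytosolic HSP110 chaperone, belonged to any of the lists above, and none is an ER folding gene. None passed in limma, with adjusted p-values of 0.762 to 0.930. Apart from Slc12a8 and Hsph1, their probes were dim, with mean log2 signals of -5.00 to -3.09 relative to the 75th percentile. An r above 0.8 was found in 26.7% of the 45 pairs of the folding genes and in 3.17% of all gene pairs. Because the folding genes were chosen with earlier results of these data known, this share is also a description and not a test. Further down the ranking, other genes of the lists above also followed the mean profile of the 10. Among them were Hsp90aa1 (0.87), Creld2 (0.85), Dnaja1 (0.83) and Hspa8 (0.77). Others ran against it, such as Pdia5 (-0.76) and Trib3 (-0.74).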

How the data were processed

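Renal cortex RNA was measured on 6 arrays, 3 per group, grouped by the sample titles. Per the submitters' processing notes the scanner software was Agilent Feature Extraction 10.7, and the deposited scanner tables hold intensity values. Per the file headers, this software subtracted background and detrended to give the processed signal, and it also wrote the flags for detection and outliers. A deposited table of intensity values equalled the processed signal divided by the array's 75th percentile, within an SD of 0.0003 log2; its column medians were 0.110, 0.111 and 0.111 (vehicle) and 0.115, 0.112 and 0.113 (benzyl acetate).

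From the deposited intensity, the log2 of the array's 75th percentile (taken over 61537 probes, controls left out) was subtracted from that of each spot, leaving out outlier spots; no spot was saturated. Scaling is relative, so it cannot show a change common to most transcripts. A probe was kept if all 3 arrays of either group had it well above background. Of all probes 28206 matched a symbol by accession in RefSeq (GRCr8), and the others kept their accession. The probe of highest mean signal stood for a gene. Limma 3.58.1 in R 4.3.3 (lmFit, eBayes, Benjamini-Hochberg, threshold 0.05) compared the groups and was tested on simulated data. The labels give 3 animals and 3 arrays a group. The p-values set a group difference against the spread between arrays within groups, moderated over all genes or probes tested. The members and lists were chosen with earlier results of these data known, so lists are described by counts and medians without a test. Genes named in each list were the 2 of highest mean signal and the 2 of lowest p. Of the pathway and marker lists, genes without a matched probe were left out. Alternatives were the replicate number or slide as a block, normexp (offset 50, on the median brightness of a spot), quantile or median scaling, scaling on detected probes, other filters and probe rules, outlier spots kept, a trended robust prior, the deposited table and leaving out each array. Coordinates are those of GRCr8 promoters; the array's own design uses an older build.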

Additional observations from a re-analysis of the deposited data

How the results depend on the processing

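Over 19 alternatives limma called 0 of the 10 genes, and the median difference of the 10 stayed below 0 in all 19, from -0.14 without vehicle replicate 2 to -0.020 without benzyl acetate replicate 1. Not all 19 are separate checks. The replicate block, outlier spots kept and the trended robust prior left the differences of the 10 genes unchanged. So did dropping the filter on dim probes and asking for detection on all 6 arrays. The slide as a block gave the same differences as leaving out vehicle replicate 1, the only array on its slide. With the replicate block the median was -0.083, the same as without it, and 0 of the 10 genes were called; the block changed no other call. Deviations of same-numbered arrays from their group means correlated at -0.11, 0.0075 and 0.00095. Between arrays of different number the range was -0.11 to 0.12. With 3 arrays a group, these values cannot decide whether the animals were paired. Over all genes limma called 2 lower with normexp and 0 to 2 lower when 1 replicate was left out, and none of these was one of the 10. The median r of the 45 pairs was 0.40 to 0.80 without 1 replicate. Directions that turned: Hsp90b1 was at -0.062 with the slide as a block, -0.069 from the mean of its probes and -0.19 from the probe of lowest signal, and -0.062 to 0.18 without 1 replicate. Pdia4 was at 0.055 with the slide as a block and 0.063 with normexp, and -0.19 to 0.21 without 1 replicate. Without 1 replicate Herpud1 ran from -0.14 to 0.015, Calr from -0.10 to 0.029 and Xbp1 from -0.17 to 0.00035. Hspa5, Pdia6, Dnajb9, Dnajc3 and Sdf2l1 stayed below 0 in all 19. Median scaling turned the share of all genes below 0 from 46.0% to 55.3% and left 9 of the 10 genes below 0. The cause of these shifts was not tested. The medians of the lists ran over the 19 alternatives from -0.069 to 0.012 for the other ER chaperones, -0.069 to 0.0027 for degradation, -0.032 to 0.0072 for the sensors and factors, -0.023 to 0.056 for the chaperones of cytosol and mitochondria, -0.080 to -0.041 for translocation and glycosylation, -0.061 to -0.021 for oxidoreductases and isomerases and -0.060 to -0.0012 for transport. With 3 arrays a group the unadjusted interval reached 0.25 log2 to either side at the median of the 10 genes, and none of the 31179 genes passed the adjusted threshold with all 6 arrays.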
